A study of Mus musculus with 4 samples.

Results

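Immediate early genes are transcribed within minutes of a stimulus from factors already present in the cell, without new protein synthesis. A set of 10 was followed here through the colon of germ-free mice. The genes were found by symbol in the deposited gene table, which held 10 of 10 among its 24016 rows, and were Fos, Fosb, Jun, Junb, Egr1, Egr2, Ier2, Nr4a1, Nr4a2 and Nr4a3. The list was set by name and not by a threshold on a measured value.

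All mice were germ-free C57BL/6 animals aged 7 weeks, so no group carried a resident flora. The LGG group was gavaged with Lactobacillus rhamnosus GG, a probiotic strain, the E. coli group with Escherichia coli, and the PBS group with phosphate-buffered saline. Both bacteria were given at the same stated concentration. The remaining group was untreated. Tissue of the gavaged groups, given as 4 mice each, was collected 4 h after gavage as colon pieces of 4 cm, and each of the 4 conditions has 1 RNA sequencing library. The labels do not say whether RNA of several mice was pooled, and they give no collection time for the untreated mice. No difference here therefore has a replicate check, no test between conditions was possible, and each interval covers counting error alone.

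The proteins are transcription factors or their regulators. Fos and Fosb pair with Jun or Junb to form the AP-1 dimer, which binds DNA through a leucine zipper. Egr1 and Egr2 are zinc-finger factors, Nr4a1, Nr4a2 and Nr4a3 are orphan nuclear receptors, and Ier2 is a small nuclear protein. Serum response factor, its ternary complex partners and the cAMP-responsive factor CREB switch the genes on, and AU-rich elements in the 3′ untranslated region shorten the life of many of the transcripts. In the gut they respond to growth factors, stretch, injury, nerve activity and microbial products, in epithelium, muscle, nerve and immune cells alike. In whole tissue, fewer cells of a type and less RNA per cell cannot be told apart.

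Upstream sequence was available for 8 of the genes from RefSeq (build GRCm38.p6), and 7 of these had a single listed start: Fos, Fosb, Jun, Junb, Nr4a1, Nr4a2 and Nr4a3. Egr2 had 5 listed starts. Of the 7, 6 held at least 1 cAMP response element half-site (TGACG, searched on both strands) in the 250 bases before the start. Of all 32851 listed starts, 17.8% held one. Nr4a1, Nr4a2 and Nr4a3 held 4 matches each, a number reached by 0.137% of all starts, Fos held 2, Fosb and Junb held 1 each, and Jun held none. The sequences of 4 genes are shown because they span this range from 0 to 4 matches and stand for the AP-1 and Nr4a families. They are Fos (chr12:85473640-85473889, plus strand), Jun (chr4:95052223-95052472, minus strand), Nr4a1 (chr15:101266596-101266845, plus strand) and Nr4a3 (chr4:48045055-48045304, plus strand, with its start 152 bases from that of the transcript matched to the counted one). Capitals mark the half-site on either strand and the TATA box.
Fos: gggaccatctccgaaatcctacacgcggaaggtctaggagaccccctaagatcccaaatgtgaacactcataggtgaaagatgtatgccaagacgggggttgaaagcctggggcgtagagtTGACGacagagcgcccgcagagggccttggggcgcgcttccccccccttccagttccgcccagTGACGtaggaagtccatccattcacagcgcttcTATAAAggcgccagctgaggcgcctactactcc
Jun: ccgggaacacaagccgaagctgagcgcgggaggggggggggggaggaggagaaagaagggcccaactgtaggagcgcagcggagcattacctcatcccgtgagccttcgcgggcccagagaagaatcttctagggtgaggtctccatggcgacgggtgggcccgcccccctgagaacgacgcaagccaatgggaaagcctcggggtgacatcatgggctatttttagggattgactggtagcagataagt
Nr4a1: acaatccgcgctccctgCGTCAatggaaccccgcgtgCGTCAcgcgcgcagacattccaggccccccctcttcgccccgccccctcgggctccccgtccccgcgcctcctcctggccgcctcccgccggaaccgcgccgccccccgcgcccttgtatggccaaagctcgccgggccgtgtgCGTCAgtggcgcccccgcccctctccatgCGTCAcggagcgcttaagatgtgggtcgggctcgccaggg
Nr4a3: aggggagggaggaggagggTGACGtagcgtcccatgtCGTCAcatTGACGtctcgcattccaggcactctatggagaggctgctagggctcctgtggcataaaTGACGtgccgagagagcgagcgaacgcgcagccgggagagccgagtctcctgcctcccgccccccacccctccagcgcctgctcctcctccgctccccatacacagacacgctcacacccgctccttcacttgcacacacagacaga

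The Fos window has a TATA box (TATAAA) from base -33 to base -28 and half-sites from -129 to -125 and from -66 to -62. In Nr4a1 the 4 matches formed a distal pair, from -233 and -213, and a proximal pair, from -69 and -40, all on the strand opposite to the gene. In Nr4a3 they lay from -231, -213, -205 and -147. An EGR element (GCGNGGGCG) was present once each in Fosb, Nr4a1 and Nr4a2, against 4.70% of all starts with at least 1. None of the 7 windows held the full element TGACGTCA (1.55% of all starts; a full element counts as 2 half-sites), an AP-1 element (TGANTCA; 6.75%), a CArG box (1.47%) or the NBRE that binds Nr4a receptors (AAAGGTCA; 1.34%). The windows had a median GC content of 66.4%, against 52.4% over all starts, and the half-site and the EGR element contain a CG pair. Egr2 held a CArG box at 4 of its 5 listed starts and 2 half-sites at 3 of them, the 3 whose windows overlap. Each element was searched in a single form, so variant forms, also of the AP-1 element, were not counted. A match describes the letters in this window and not a site in use.

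**Figure D1:**
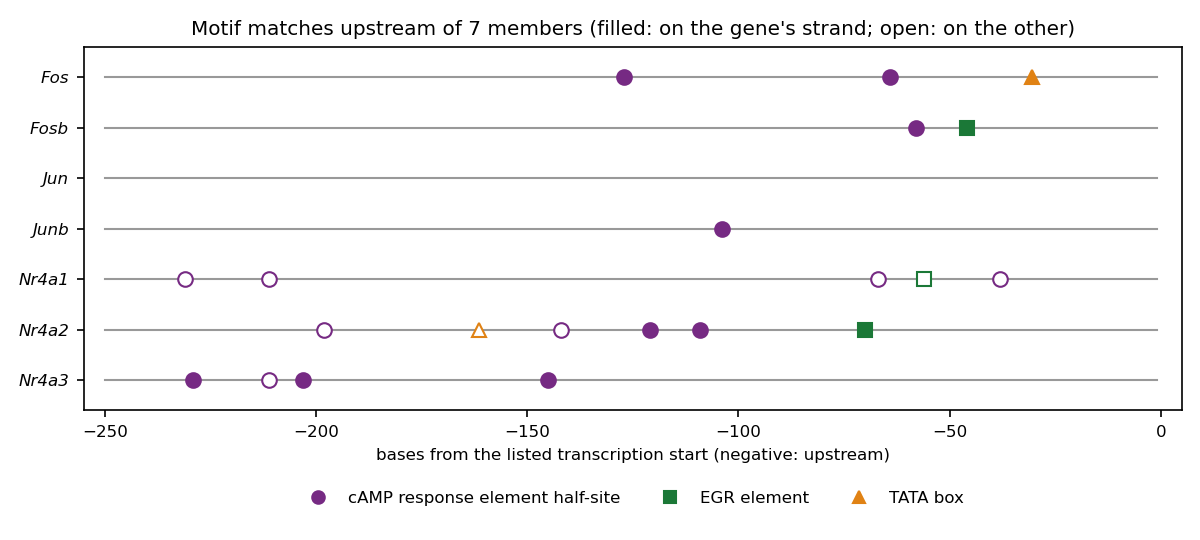
Motif matches in the 250 bases upstream of the 7 members with a single listed start; the x axis is distance from the start in bases, circles are cAMP response element half-sites, squares EGR elements and triangles TATA boxes, open where the match is on the other strand. Nr4a1, Nr4a2 and Nr4a3 each show 4 circles and Jun shows no symbol.

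The genes are also compact. From start to end in the deposited table (mm9), 8 of the 10 span under 10 kb, against 26.4% of the 13839 protein-coding genes tested, with a median of 4.03 kb against 22.2 kb. Jun, Junb and Ier2 have no intron: their span equals their exon length within 3 bases, which holds for 1.97% of those genes. Ier2 (NM_010499, chromosome 8, 87185230 to 87186751) and Junb (NM_008416, chromosome 8, 87500808 to 87502647) lie 314 kb apart on the same strand. No member overlaps another row of the table, and each is listed with 1 copy in the genome. Through the table's RefSeq accessions, 3′ untranslated regions were read from GENCODE transcripts (GRCm38). The pentamer ATTTA, the core of AU-rich elements, occurred at a median of 2.38 per kb in the 10 members, against 1.41 per kb over 15613 genes. Its density was above that median in 8 members, highest in Nr4a1 (3 copies in 543 bases) and Fos (4 in 815), and Ier2 had none in 755 bases.

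Colon libraries differed in depth and in what they held besides epithelium. Total counts were 29899371 (LGG), 29368008 (E. coli), 16289580.0 (PBS) and 27220697 (untreated). All 12 colon epithelial markers, among them Muc2, the main mucin of goblet cells, were at 148 CPM (CPM stands for counts scaled to the size of the library) or more in every library. Summed over 12 enteric neuron and glia markers, the level was 134 CPM in LGG, 116 in E. coli, 135 in PBS and 172 in untreated colon. Summed over 7 adipocyte markers it was 159 CPM in LGG, 76.6 in E. coli, 117 in PBS and 157 in untreated colon. Of 6 mesothelial markers, 5 were lower in E. coli than in PBS past the 2-fold rule given below. The sixth, Krt19, which epithelium also expresses, carried most of the sum of 3571 CPM in LGG, 3304 in E. coli, 3389 in PBS and 2815 in untreated colon. The 10 smooth muscle markers summed to 12606 CPM in LGG, 11528 in E. coli, 12612 in PBS and 13729 in untreated colon, and the 8 B and plasma cell markers to 68.4 CPM in LGG, 87.8 in E. coli, 88.4 in PBS and 48.6 in untreated colon. The 8 macrophage markers summed to between 145 and 156 CPM. No marker of these lists was at 0. The pancreatic acinar list of 11 genes summed to 49.9 CPM in LGG, 89.1 in E. coli, 24.1 in PBS and 3.82 in untreated colon.

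Levels among the members spanned a wide range. Per kilobase of transcript, Fos was the most abundant, at a mean of 61.6 CPM per kb over the 4 libraries, followed by Junb (52.5), Ier2 (48.9) and Jun (37.3). Egr1 (11.0) and Nr4a1 (9.28) formed a middle group. Fosb was at 3.62, Nr4a2 at 1.41, Nr4a3 at 0.663 and Egr2 at 0.244. In plain CPM, Fos exceeded 88.4% of the 14450 genes with a mean of at least 1 CPM. Egr2 alone was below that mean, at 0.724 CPM, so 9 of the 10 members were measured well enough to enter the counts below. Egr4, another zinc-finger gene of the family, had 0 counts in every library, which allows up to 0.103 CPM in LGG, 0.103 in E. coli, 0.187 in PBS and 0.105 in untreated colon.

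**Figure D2:**
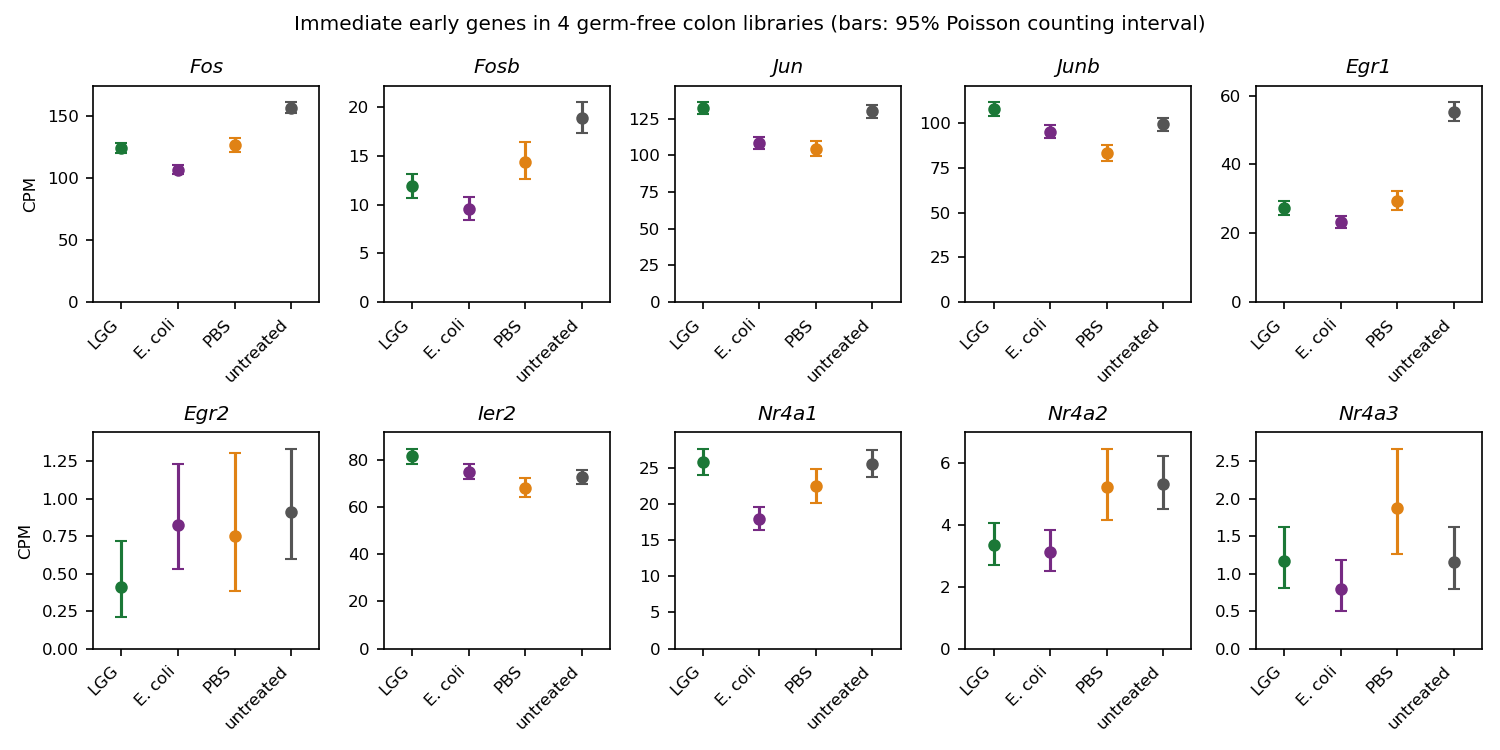
CPM of each of the 10 members (y axis, from 0) in the LGG, E. coli, PBS and untreated libraries, 1 point per library with its 95% Poisson counting interval. Fos, Fosb, Egr1 and Nr4a2 have their highest point in untreated colon, and Jun, Junb, Ier2 and Nr4a1 in the LGG library.

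The members did not share 1 pattern. Fos, Fosb, Egr1 and Nr4a2 had the same order of levels, with untreated highest, then PBS, then LGG, then E. coli. Jun and Junb ran from LGG through untreated and E. coli to PBS. Some steps of these orders lay within counting error. These were LGG against PBS for Fos and Egr1, and PBS against untreated and LGG against E. coli for Nr4a2. For Jun they were LGG against untreated and E. coli against PBS, and for Junb E. coli against untreated. No member was highest in the E. coli library and 6 were lowest there, while 5 were highest and none was lowest in untreated colon. The shares of all tested genes that were highest or lowest in each library were not counted, so these numbers only describe the members. They include near-ties and low counts, as for Egr2 (26 counts in untreated colon and 24 in E. coli) and Nr4a3 (23 in E. coli). The summed level of the 10 was 515 CPM in LGG, 441 in E. coli, 457 in PBS and 566 in untreated colon.

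Calls used a size rule with 3 conditions: a log2 ratio of 1 or more in either direction (2-fold), a 95% counting interval without 0, and a mean of 1 CPM or more. Ratios are on the log2 scale with a prior of 0.5 counts. The intervals narrow as counts grow, so a small ratio of an abundant gene can exclude 0.

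Egr1, induced in most cells through serum response elements, differed most between gavaged and untreated colon. It was at 27.3 CPM in LGG, 23.2 in E. coli, 29.5 in PBS and 55.3 in untreated colon (NM_007913, chromosome 18, 35020861 to 35024610 in mm9). The untreated library stood apart above the 3 gavaged libraries. Among these, LGG and PBS did not differ beyond counting error, and E. coli was below PBS (-0.34, -0.52 to -0.17) and below LGG. The log2 ratio to untreated was -1.02 (-1.15 to -0.90) for LGG, -1.25 (-1.39 to -1.12) for E. coli and -0.91 (-1.06 to -0.76) for PBS. The first 2 passed the size rule and PBS did not. In PBS against untreated, 1.10% of all tested genes had a ratio as low. These 3 ratios share the untreated library, and gavage cannot be told apart from whatever else differed between those mice. Egr2, a factor of myelinating glia and lymphocytes, was at 0.41 CPM in LGG, 0.826 in E. coli, 0.748 in PBS and 0.911 in untreated colon, from 12 to 26 counts. The LGG library was lowest, at -1.12 (-2.27 to -0.11) against untreated, and the mean kept Egr2 out of the calls.

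Fosb and Fos followed in the same direction. Fosb, the AP-1 partner that is also spliced into a long-lived short form, was at 11.9 CPM in LGG, 9.54 in E. coli, 14.4 in PBS and 18.8 in untreated colon. Its ratio to untreated was -0.67 (-0.87 to -0.47) in LGG, -0.98 (-1.20 to -0.77) in E. coli and -0.39 (-0.62 to -0.16) in PBS. Fos (NM_010234, chromosome 12, 86814851 to 86818219 in mm9), the prototype of the class, was at 124 CPM in LGG, 107 in E. coli, 127 in PBS and 157 in untreated colon. All 3 gavaged libraries were below the untreated one, and LGG and PBS did not differ beyond counting error (-0.03, -0.11 to 0.05). Against untreated, Fos was at -0.34 in LGG, -0.55 in E. coli and -0.31 in PBS.

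The Jun side behaved otherwise. Jun (NM_010591, chromosome 4, 94715727 to 94718913 in mm9), the main partner of Fos, was at 132 CPM in LGG, 108 in E. coli, 104 in PBS and 129.9 in untreated colon. LGG and untreated were the high pair, and E. coli and PBS the low pair. Junb, a partner that often restrains Jun, was at 108 CPM in LGG, 95.2 in E. coli, 83.3 in PBS and 99.4 in untreated colon. Ier2 was at 81.4 CPM in LGG, 74.9 in E. coli, 68.1 in PBS and 72.6 in untreated colon, the narrowest range of the members (0.26 on the log2 scale). For all 3 genes the PBS library was lowest and the LGG library highest.

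Counted over the 9 members in PBS against untreated, 5 had intervals below 0 and none above, at a median log2 ratio of -0.26, against 0.0015 over all tested genes. Over all genes, 18.3% had intervals below 0 and 20.3% above. None of the 9 was past the 2-fold rule in either direction, where 0.664% of all genes were higher and 0.782% lower. Nr4a3 had the one positive ratio, at 0.68 (-0.07 to 1.45) from 30 counts in PBS and 33 in untreated colon. In E. coli against untreated, 6 of the 9 had intervals below 0 and none above (22.4% of all genes below, 24.9% above), with a median of -0.54. Egr1 was the 1 member past the rule (1.53% of all genes lower, 0.824% higher). In LGG against untreated, 4 had intervals below 0 (23.0% of all genes) and 2 above (24.7%), and Egr1 again was the 1 member past the rule (0.588% of all genes lower, 0.457% higher). The 2 above were Junb (0.12, 0.05 to 0.19) and Ier2 (0.17, 0.08 to 0.25); with library totals as the scaling no member's interval lay above 0. Marker lists went both ways against untreated. All 12 enteric neuron and glia markers and all 4 measured erythroid markers had negative ratios to untreated in each gavaged library. Fibroblast markers were lower in 6 of 7 cases in LGG (median -0.29), 5 of 7 in E. coli (-0.10) and 7 of 7 in PBS (-0.31). Smooth muscle markers were lower in 7 of 10 cases in LGG, 10 of 10 in E. coli and 8 of 10 in PBS. Adipocyte markers were lower in 3 of 7 cases in LGG, 7 of 7 in E. coli (median -1.13) and 6 of 7 in PBS. Mesothelial markers were lower in 5 of 6 cases in LGG, 5 of 6 in E. coli and 4 of 6 in PBS. Endothelial markers were lower in 5 of 6 cases in LGG, 4 of 6 in E. coli and 4 of 6 in PBS. Macrophage markers were lower in 5 of 8 cases in each gavaged library. Other lists were higher in each: B and plasma cell markers in 8 of 8 cases and acinar genes in 11 of 11. Epithelial markers were higher in 10 of 12 cases in LGG (median 0.25), 9 of 12 in E. coli (0.21) and 9 of 12 in PBS (0.22). The part of these lists in the members' levels was not tested.

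**Figure D3:**
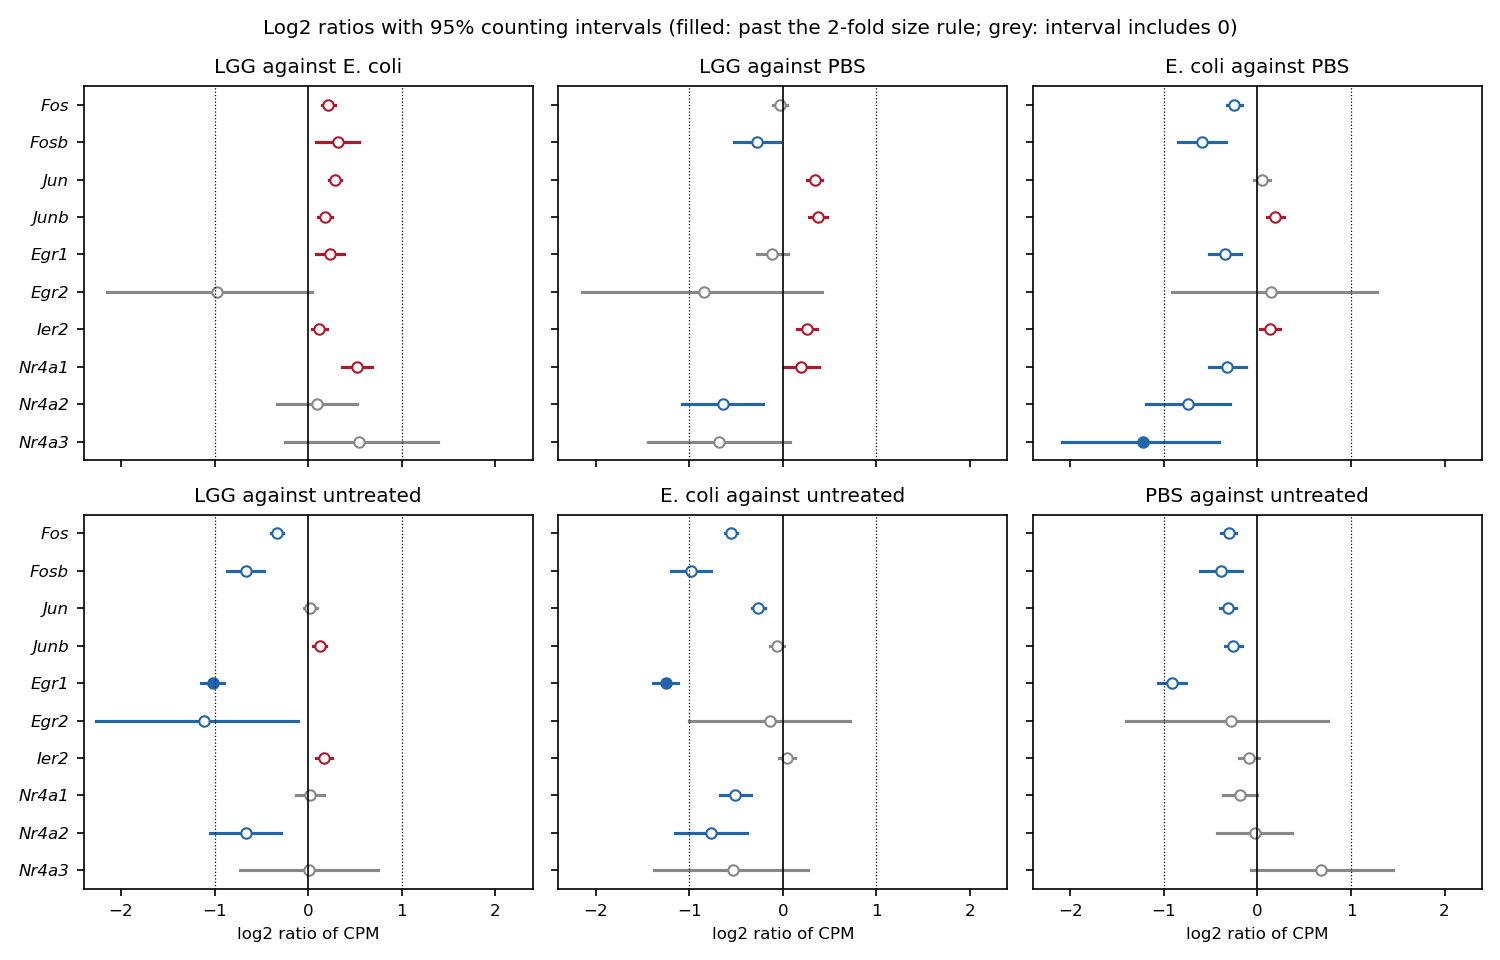
Log2 ratios of CPM (x axis) for each member in the 6 comparisons, with 95% counting intervals; filled points are past the 2-fold size rule, red and blue intervals lie above and below 0, grey ones include 0. Egr1 is filled in LGG and in E. coli against untreated, and Nr4a3 in E. coli against PBS.

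At a lower threshold of 1.5-fold with the other conditions kept, no member was higher in any comparison. Egr1 was lower in PBS against untreated, where 3.55% of all tested genes were lower and 2.37% higher. Fosb, Egr1 and Nr4a2 were lower in LGG against untreated (3.62% of all genes lower, 1.64% higher). The same 3 genes were lower in E. coli against untreated (5.48% lower, 2.82% higher). Nr4a2 was lower in LGG against PBS (0.789% lower, 0.782% higher), and Fosb, Nr4a2 and Nr4a3 were lower in E. coli against PBS (0.997% lower, 0.471% higher). None was called in LGG against E. coli (1.34% higher, 0.844% lower).

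Ratios between members inside a library do not depend on how libraries are scaled. The ratio of Fos to Jun counts was 0.939 (95% counting interval 0.898 to 0.983) in LGG and 0.986 (0.938 to 1.04) in E. coli. It was 1.21 (1.14 to 1.30) in PBS and 1.21 (1.16 to 1.26) in untreated colon. The bacterial libraries thus held less Fos relative to Jun than both libraries without bacteria, with no overlap between the intervals of these pairs. Egr1 split the libraries in another way. Its ratio to Fos was 0.220 (0.203 to 0.237) in LGG, 0.217 (0.199 to 0.236) in E. coli and 0.233 (0.210 to 0.257) in PBS, against 0.353 (0.333 to 0.374) in untreated colon. The 3 gavaged libraries had overlapping intervals and the untreated library lay above them. The ratio of Fosb to Fos was 0.0955 (0.0853 to 0.107) in LGG and 0.0892 (0.0786 to 0.101) in E. coli. It was 0.114 (0.0987 to 0.130) in PBS and 0.120 (0.110 to 0.131) in untreated colon, and the PBS interval overlapped all the others. Ier2 to Jun was lowest in untreated colon, at 0.559 (0.529 to 0.590). It was 0.616 (0.585 to 0.649) in LGG, which overlapped untreated, 0.691 (0.654 to 0.730) in E. coli and 0.652 (0.604 to 0.704) in PBS. Junb to Jun did not separate the bacterial libraries from the others, at 0.818 (0.780 to 0.857) in LGG and 0.797 (0.741 to 0.857) in PBS. The pairs were chosen after the levels were seen. How often other pairs of genes split the libraries in these ways was not counted, so the ratios only describe these libraries.

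**Figure D4:**
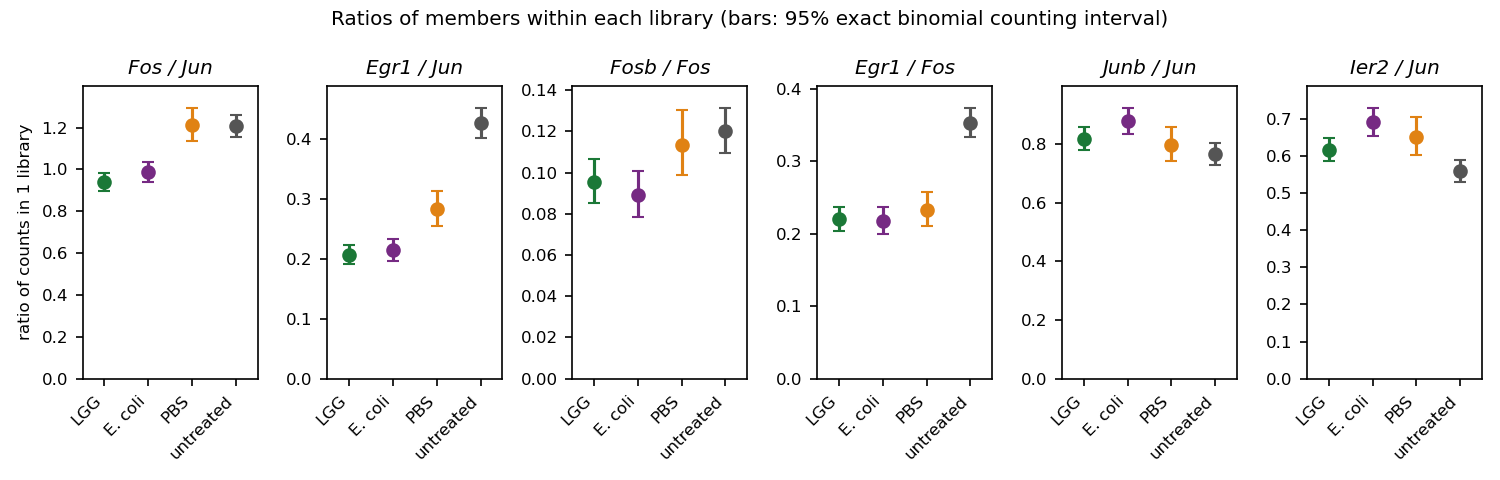
Ratio of the counts of 2 members within each library (y axis, from 0) with 95% exact binomial counting intervals, for 6 pairs. Fos to Jun separates the bacterial libraries (0.939 and 0.986) from the others (both 1.21), and Egr1 to Fos separates the gavaged libraries from the untreated one (0.353). Junb to Jun separates neither, and the pairs were chosen after the levels were seen.

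The comparison of each bacterium with its vehicle describes how these libraries differed at 4 h. With 1 library per condition, the bacteria cannot be told apart from whatever else differed between the mice or tissue pieces. In LGG against PBS, no member was past the 2-fold rule (0.18% of all genes higher, 0.0969% lower). Of the 9, 4 had intervals above 0 (14.3% of all genes) and 2 below (13.1%). The median was -0.03, and 0.20 when a mean of at least 5 CPM was asked, which leaves out Nr4a2 and Nr4a3. Junb (0.38, 0.28 to 0.47), Jun (0.34, 0.26 to 0.42), Ier2 (0.26, 0.15 to 0.36) and Nr4a1 (0.20, 0.01 to 0.38) were higher in the LGG library. Nr4a2 (-0.64, -1.08 to -0.21) and Fosb (-0.28, -0.52 to -0.03) were lower. Fos and Egr1 (-0.11, -0.28 to 0.06) included 0.

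In E. coli against PBS, 6 of the 9 members had intervals below 0, against 8.93% of all tested genes, and 2 above, against 10%. Junb (0.19, 0.10 to 0.29) and Ier2 (0.14, 0.03 to 0.24) were the 2 higher, and Jun included 0 at 0.05. Fos (-0.25, -0.33 to -0.16), Egr1 (-0.34, -0.52 to -0.17), Nr4a1 (-0.32, -0.52 to -0.12), Fosb (-0.59, -0.85 to -0.34) and Nr4a2 (-0.74, -1.18 to -0.30) were lower. Nr4a3 was the 1 member past the rule, at -1.22 (-2.09 to -0.41), where 0.242% of all genes were lower and 0.173% higher. It rests on 23 counts in E. coli and 30 in PBS. The median of the 9 was -0.32, against 0.0022 over all genes. Several marker lists were lower in the same comparison. These were adipocyte markers in 7 of 7 cases (median -0.78), mesothelial markers in 6 of 6 (-1.30), smooth muscle markers in 10 of 10 (-0.13) and enteric neuron and glia markers in 11 of 12 (-0.18). Macrophage markers were lower in 5 of 8 (-0.02). Other lists were higher: acinar genes in 11 of 11 cases (median 1.87), erythroid markers in 4 of 4 (0.22) and B and plasma cell markers in 6 of 8 (0.17). Fibroblast markers were higher in 5 of 7 (0.09), endothelial markers in 4 of 6 (0.03) and epithelial markers in 7 of 12 (0.01). The part of any of these lists in the members' levels was not tested.

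The Nr4a receptors differed from each other. Nr4a1 lies on chromosome 15 (NM_010444, 101097277 to 101105225 in mm9) and stood at 25.7 CPM in LGG, 17.9 in E. coli, 22.4 in PBS and 25.5 in untreated colon. The E. coli library was lowest, below each of the others beyond counting error. Nr4a2, known from dopamine neurons and macrophages, was at 3.35 CPM in LGG, 3.13 in E. coli, 5.23 in PBS and 5.33 in untreated colon. Both bacterial libraries were below both libraries without bacteria, and within each pair the levels did not differ beyond counting error. These levels rest on 84 to 152 counts per library. The share of all tested genes with the same separation was not counted. Against untreated, Nr4a2 was at -0.67 (-1.05 to -0.29) in LGG and -0.76 (-1.16 to -0.38) in E. coli, and PBS was at -0.02 (-0.43 to 0.37). Nr4a3 was at 1.16 CPM in LGG, 0.792 in E. coli, 1.87 in PBS and 1.16 in untreated colon. It rests on 23 to 34 counts per library, and E. coli against PBS was its one ratio with an interval that excluded 0. Nr4a3 was counted over 1877 bases, while the GENCODE transcript matched to it is 5720 bases long.

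In LGG against E. coli, all 9 members had positive ratios, with a median of 0.23 against -0.0002 over all tested genes, of which 49.9% were positive. This held under every scaling tried. Intervals lay above 0 for 7 of the 9, against 16.4% of all genes, and below 0 for none, against 16.2%. No member was past the 2-fold rule (0.263% of all genes higher, 0.0969% lower). Nr4a1 had the highest ratio with an interval above 0, at 0.52 (0.36 to 0.68), a ratio reached by 2.08% of all genes. Fosb (0.31, 0.08 to 0.55), Jun (0.29, 0.22 to 0.35), Egr1 (0.23, 0.08 to 0.38), Fos (0.22, 0.15 to 0.29), Junb (0.18, 0.11 to 0.26) and Ier2 (0.12, 0.04 to 0.20) followed. Nr4a3 (0.54, -0.25 to 1.38) and Nr4a2 (0.10, -0.33 to 0.52) included 0. Egr2, under the expression minimum, went the other way at -0.98 (-2.14 to 0.05), from 12 counts in LGG and 24 in E. coli. Adipocyte markers were higher in LGG than in E. coli in 7 of 7 cases, with a median of 1.32, and enteric neuron and glia markers in 11 of 12, with a median of 0.18. Smooth muscle markers were higher in 9 of 10, at a median of 0.10, mesothelial markers in 6 of 6, at 0.46, erythroid markers in 4 of 4, at 0.21, and heat shock genes in 6 of 6, at 0.16. Epithelial markers were higher in 8 of 12, at 0.04, and fibroblast markers in 4 of 7, at 0.05. Other lists were lower in LGG than in E. coli. These were endothelial markers in 6 of 6 cases (median -0.25) and B and plasma cell markers in 8 of 8 (-0.24). Acinar genes were lower in 11 of 11 (-0.82) and macrophage markers in 5 of 8 (-0.10). The part of all these lists in the members' ratios was not tested.

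**Figure D5:**
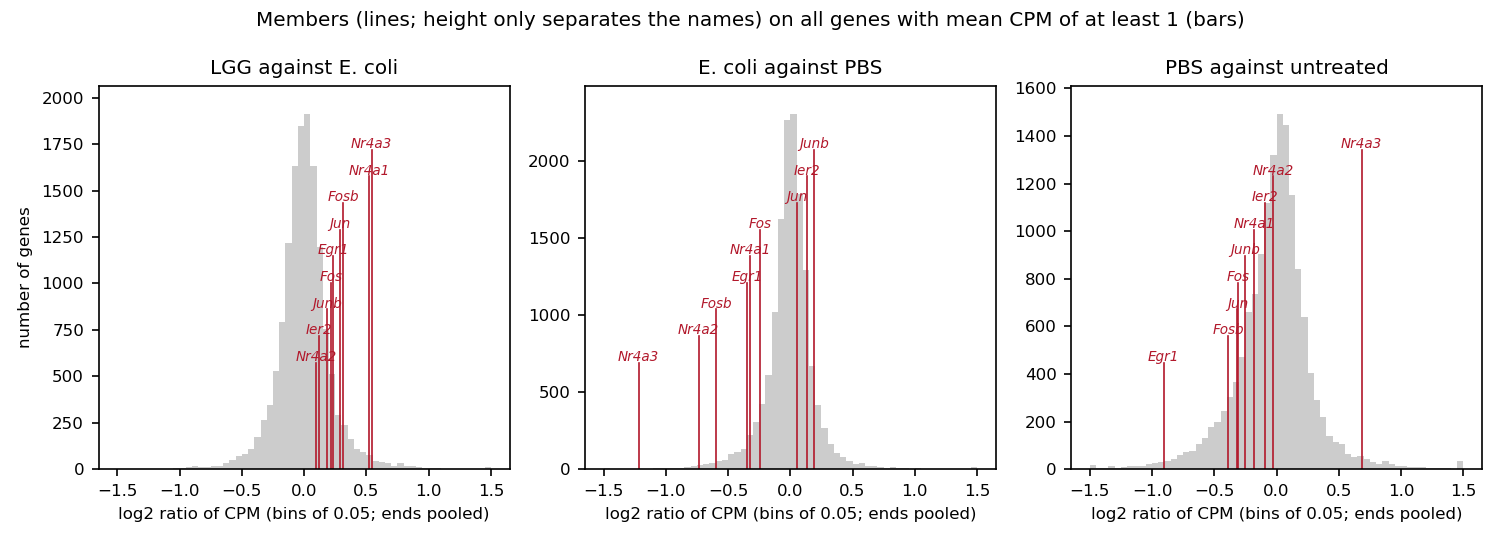
Number of genes (y axis) by log2 ratio of CPM (x axis) for all 14450 genes with a mean of at least 1 CPM, with the 9 members as red lines whose heights only separate the names. In LGG against E. coli all 9 lines lie right of 0, in E. coli against PBS 6 of 9 lie left of it, and in PBS against untreated 8 of 9.

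Other immediate early genes did not shift as a group. Of 38 listed, 37 reached a mean of 1 CPM, and their median was 0.07 in LGG against E. coli, -0.03 in E. coli against PBS and 0.06 in PBS against untreated. Nfil3, a basic leucine zipper repressor that is also part of the circadian output, was the one past the size rule. It was at 2.32 CPM in LGG, 1.58 in E. coli, 1.99 in PBS and 4.69 in untreated colon, with ratios to untreated of -1.01, -1.56 and -1.23. A few genes were picked out after their values were seen. Rgs2, a brake on G protein signalling, was at 43.2 CPM in LGG, 32.6 in E. coli, 36.0 in PBS and 59.1 in untreated colon. Dusp1, the phosphatase that ends MAP kinase signals, was at 42.4 CPM in LGG, 34.1 in E. coli, 36.6 in PBS and 43.2 in untreated colon, the order of high and low pairs seen for Jun. Per1, an immediate early gene of the clock, was instead higher in gavaged colon, at 0.51 in LGG, 0.67 in E. coli and 0.74 in PBS against untreated.

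Among 12 further AP-1 and related factors, 10 reached 1 CPM and none was past the rule in any comparison. Jund, the constitutive Jun protein, was at 403 CPM in LGG, 326 in E. coli, 298 in PBS and 318 in untreated colon. LGG was the highest, as for Jun and Junb, with a ratio to PBS of 0.44 (0.39 to 0.49). Fosl2, a Fos relative, was at 295 CPM in LGG, 318 in E. coli, 306 in PBS and 258 in untreated colon, lowest where Fos was highest. Atf3, a stress-induced repressor named after its values were seen, was at 42.9 CPM in LGG, 29.6 in E. coli, 43.1 in PBS and 39.9 in untreated colon. The E. coli library was lowest, as for Nr4a1. LGG and PBS did not differ beyond counting error for Atf3, while for Nr4a1 PBS was below LGG.

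Of 15 listed upstream factors none was past the rule in any comparison. Srf, the serum response factor, was at 94.0 CPM in LGG, 89.8 in E. coli, 90.1 in PBS and 95.9 in untreated colon, and Mkl2, its actin-regulated coactivator, stayed between 61.7 and 70.0 CPM. Of 5 partner genes 4 reached 1 CPM. Nab1, a corepressor of Egr proteins, stayed between 54.8 and 58.6 CPM, and Rxra, which pairs with Nr4a1 and Nr4a2, between 125 and 141 CPM. Of 12 feedback inhibitors of MAP kinase signalling none was past the rule. Positive ratios to untreated were found for 2 of them in LGG (49.7% of all tested genes), 3 in E. coli (51.0%) and 3 in PBS (50.3%). Errfi1, a brake on the EGF receptor, was at 104 CPM in LGG, 86.9 in E. coli, 106 in PBS and 131 in untreated colon. Dusp6, an ERK phosphatase, was at 57.1 CPM in LGG, 55.8 in E. coli, 51.6 in PBS and 65.7 in untreated colon. Of 6 heat shock genes none was past the rule, and 5 had negative ratios to untreated in LGG, 5 in E. coli and 3 in PBS. The stress-inducible Hspa1a, named after its values were seen, was at 15.7 CPM in LGG, 15.1 in E. coli, 13.3 in PBS and 22.1 in untreated colon, highest in the untreated library as Egr1 was. Its near-identical copy Hspa1b, with which it can share reads, was at 32.5 CPM in LGG, 27.3 in E. coli, 29.5 in PBS and 39.3 in untreated colon. Of the 2 most abundant, Hspa8 was at 1481 CPM in LGG, 1431 in E. coli, 1676 in PBS and 1604 in untreated colon, and Hspb1 at 123 CPM in LGG, 99.1 in E. coli, 108 in PBS and 73.5 in untreated colon.

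Likeness of pattern was measured as the distance between log2 CPM profiles over the 4 libraries, each centred on its mean, among 13419 named protein-coding genes. The 5 genes nearest to Fos were Npy4r, Faxc, Errfi1, Nsg1 and Fbxl16, at distances of 0.03 to 0.04. The nearest other member was Nr4a1, at 0.27 and rank 1571. For Egr1, the member with the widest range (1.25 on the log2 scale), the nearest were Grip2, Plat, Rnf144a, Prox1 and St3gal5, at 0.06 to 0.12. Fosb was the member closest to Egr1, at 0.38 and rank 150. With 4 libraries many genes come near any profile, so the ranks describe these libraries only.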

How the data were processed

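RNA of germ-free mouse colon was sequenced in 4 libraries from TruSeq RNA v2 kits, per the labels' protocols. The authors deposited 1 table of expected counts per RefSeq gene, in steps of 0.5. TopHat2, HOMER and mm9 are named in the submitters' processing notes. Their versions, and whether counting used strand, are not stated in these sources. The counts were rounded to whole numbers and scaled with trimmed mean of M-values factors (edgeR 4.0.16, R 4.3.3) of 0.979 (LGG), 0.989 (E. coli), 0.985 (PBS) and 1.05 (untreated).

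CPM, log2 ratios (prior 0.5 counts, in proportion to library size) and exact 95% intervals (Clopper-Pearson for 2 counts, Poisson for 1) came from Python 3.11.15, numpy 2.4.6, pandas 2.3.3 and scipy 1.17.1; figures used matplotlib 3.10.9. The intervals, and the upper limit of 3 counts used for a gene at 0, describe counting error alone, since each condition has 1 library. The reads carry no molecular identifiers, so the intervals treat every read as a separate molecule. The size rule was run on simulated counts for each comparison before use. Those counts varied by counting error alone, so the run does not describe differences between mice or tissue pieces. Alternatives were DESeq2 1.42.0 size factors, library totals, upper-quartile factors, no expression minimum or 5 CPM, unrounded counts, a threshold of 1.5-fold and a prior raised to 5 counts.

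The members, the other lists, the rule and the comparisons were chosen with earlier results of these data known. All 10 members are named. From each other list, up to 4 genes past the size rule are named, or the 2 most abundant where none passed, and for marker lists the summary stands for the list; other genes were chosen after their values were seen. For Fos and the member of widest range, the 5 genes of nearest profile are named.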

Additional observations from a re-analysis of the deposited data

Results flagged for a closer look

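Nr4a1 stood on opposite sides of the PBS library in the 2 bacterial libraries, with counting intervals that both excluded 0. Its log2 ratio was 0.20 (0.01 to 0.38) in LGG against PBS and -0.32 (-0.52 to -0.12) in E. coli against PBS. With 1 library per condition the difference was not tested, and both ratios share the PBS library. The direct ratio of LGG against E. coli, which does not use it, was 0.52 (0.36 to 0.68). No other member met this description.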

How the results depend on the processing

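No paired analysis was possible because each condition has 1 library, and no library could be left out for the same reason. The size rule called few members, and the counts moved with its settings. At 1.5-fold, 1 member was called in PBS against untreated (2-fold: 0), 3 in LGG against untreated (1), 3 in E. coli against untreated (1), 1 in LGG against PBS (0) and 3 in E. coli against PBS (1), all lower. Without an expression minimum, Egr2 made 2 in LGG against untreated. With a mean of at least 5 CPM, Nr4a2 and Nr4a3 left the test, so that 0 were called in E. coli against PBS, and the median in LGG against PBS was 0.20 in place of -0.03. With library totals, 2 were called in E. coli against untreated. Of 60 member ratios, 39 had an interval that excluded 0, and none of these changed sign under another scaling, prior or rounding; 4 others did, among them Jun in LGG against untreated (-0.08 with library totals, 0.01 with upper-quartile factors, 0.03 with DESeq2 size factors). Library totals moved the median of all genes by at most 0.0994. Depth limits Egr2 and Nr4a3, with 12 to 34 counts per library.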
